A study of Mus musculus with 768 samples.

Results

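The synaptic vesicle and release genes are 38 listed genes that encode the parts of the presynaptic release machinery, with a few transporters and adhesion molecules of the synapse. All 38 were found among the 27723 genes of the table, which writes symbols in capitals (SNAP25, STX1A, CPLX2, SYT1). They were followed in single mouse cells from embryoid bodies, aggregates of embryonic stem cells, of the line Ainv15(iNgn2.Isl1.Lhx3.V5). Every cell, including those at 0 h, carries 1 inducible cassette of the transcription factors Ngn2, Isl1 and Lhx3, which is switched on by 3 µg/ml doxycycline, a combination used to turn stem cells into spinal motor neurons. Embryoid bodies were formed 2 days before doxycycline, and cells were taken at 0, 6, 12, 18, 24, 30, 36 and 48 h, with 96 cells sorted as viable at each time. No label tells cultures apart inside a time point, and all cells come from this line, so each time point is 1 sample of pooled embryoid bodies. Spreads are therefore between cells of 1 sample, no p-value was made, and a difference is described by its size. The question put to these genes is which of them precede others.

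Transmitter release rests on vesicles that are filled by transporters, docked and primed at the active zone, and fused with the membrane by the SNARE proteins, which are the vesicle protein Vamp2 and the membrane proteins Snap25 and Stx1a. Synaptotagmins sense calcium and complexins hold the SNARE bundle ready, and afterwards the ATPase Nsf with its adaptors Napa and Napb takes the bundle apart for another round. Nsf and Napa serve membrane traffic in all cells, whereas most of the other genes are known from neurons, neuroendocrine cells or both.

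The time points fall into 2 sets that stand apart in mean Sod1, and comparisons were kept within a set. The labels do not state whether these sets are the 2 library batches that they name. Mean Sod1, which encodes a superoxide dismutase, was between 518 and 807 TPM at 6, 18, 24 and 30 h, and between 19553 and 65262 TPM at 0, 12, 36 and 48 h. TPM values are shares of the RNA of a cell, corrected for transcript length and scaled to a fixed total. Cells with at least 2000 genes above 0 were used, 368 of 768. They numbered 53, 56, 55 and 57 at 6, 18, 24 and 30 h, with medians of 6481 to 7484 genes per cell, and 37, 52, 44 and 14 at 0, 12, 36 and 48 h. In the second set the median fell with time, with 5304 genes at 0 h and 2141 at 48 h, and no cell at 36 or 48 h reached 4000 genes. A value of 0 can be a missed transcript or an absent one, and which of these it was was not tested. Hprt, a gene used by all cells, was above 0 in 59.6% to 67.9% of cells at 6 to 30 h, with means of 14.1 to 77.3 TPM. At 0 to 48 h it was above 0 in 7.14% to 20.5% of cells, with means of 1.32 to 20.4 TPM. Rplp0, another such gene with higher means, was above 0 in every cell at 0, 6, 30 and 36 h. Neuronal genes were higher at the later times in both sets. The summed mean of 15 early neuronal genes was 376, 525, 1123 and 1120 TPM at 6, 18, 24 and 30 h, and 154, 1001, 3607 and 4819 TPM at 0, 12, 36 and 48 h.

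A member was counted as reaching the level rule where its mean was at least 10 TPM with at least 25% of cells above 0. By that rule 10 of 38 members were reached in each set, 13 in either and 7 in both, against 24.7% of all genes at 6 to 30 h and 23.3% at 0 to 48 h. In the order of first reaching the rule, Nsf, Napa, Cplx2 and Uchl1 came at 6 h, Snap25 at 18 h, Stx1a, Syt11, Cplx1 and Syp at 24 h, and Rab3b at 30 h. Of all genes that met the rule in that set, 77.1% met it at 6 h, 11.7% first at 18 h, 7.67% at 24 h and 3.51% at 30 h. In the other set Nsf, Napa, Napb, Syt4, Syt11 and Uchl1 met it at 0 h and Snap25, Syt13, Cplx2 and Syp at 12 h, with no member first reaching it at 36 or 48 h. There 83% of all genes that met the rule did so at 0 h, and 10.5%, 4.21% and 2.31% first at 12, 36 and 48 h. Of the 6 members that came after 6 h, several sat close to 10 TPM. Syt11 was at 9.28 TPM and Syp at 8.43 TPM at 6 h, and with each gene's highest cell left out 3 members came after 6 h, namely Stx1a and Cplx2 at 24 h and Snap25 at 18 h. The places of Syt11, Syp, Cplx1 and Rab3b thus rest on 1 cell each, and Cplx2, at 10.6 TPM at 6 h, moves from 6 h to 24 h.

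**Figure D1:**
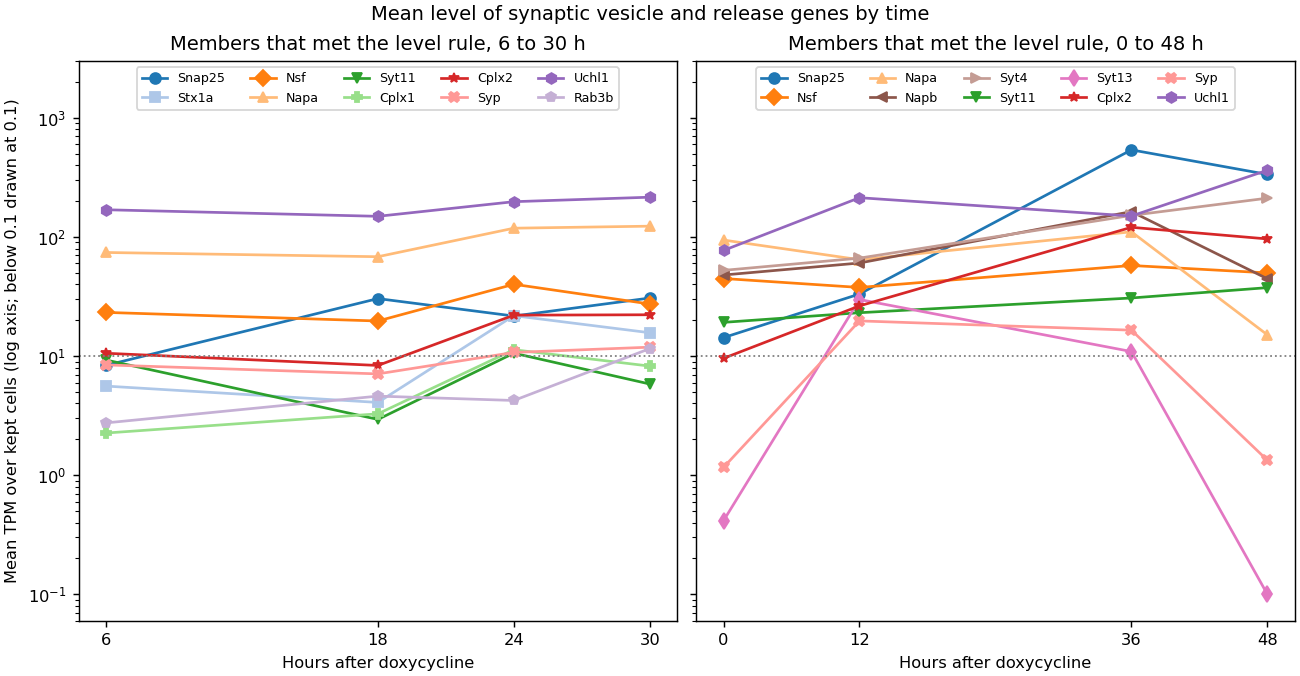
Mean TPM over cells with at least 2000 genes (log axis, below 0.1 drawn at 0.1) against hours after doxycycline, for the members that reached a mean of 10 TPM with at least 25% of cells above 0 at any time of the set. The dotted line marks 10 TPM. Nsf, Napa and Uchl1 lie above the line throughout both panels, and Snap25 reaches the highest mean of any member, 539 TPM at 36 h.

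A second order was the first time at which a mean came to at least 50% of its own highest mean in the set. It was given only to members that met the level rule in that set, so it is not free of the fixed level. It placed Nsf, Napa, Syt11, Syp and Uchl1 at 6 h, Snap25 at 18 h, Stx1a, Cplx1 and Cplx2 at 24 h and Rab3b at 30 h. Among all genes that met the level rule 74.3%, 18.2%, 6.69% and 0.831% stood at these 4 times. At 0 to 48 h it placed Nsf, Napa and Syt11 at 0 h, Syt13, Syp and Uchl1 at 12 h, and Snap25, Napb, Syt4 and Cplx2 at 36 h, against 56%, 17.2%, 16.1% and 10.7% of all genes at 0, 12, 36 and 48 h. Both orders and both sets thus had Nsf and Napa at the first time sampled and Snap25 after it, but this depended on the level and on the cells used. At a level of 5 TPM Snap25 and Stx1a were both placed at 6 h. Over all cells the 50% order placed Nsf, Snap25 and Stx1a together at 18 h, and Nsf at 12 h in the other set. Among cells of 2000 to 4000 genes in that set both orders placed Nsf at 12 h, and the 50% order Napa too, still ahead of Snap25 at 36 h. Stx1a met the level rule in 1 set, so its place could not be set beside the other.

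The SNARE genes came at different times. Snap25 (GRCm38.p6 chr2:136713439-136782428), the membrane SNARE that supplies a pair of helices to the fusion bundle, averaged 8.36 ± 21.5, 30.4 ± 95.6, 21.7 ± 60.2 and 30.7 ± 123 TPM at 6, 18, 24 and 30 h (SD over cells). It was above 0 in 20 of 53, 25 of 56, 22 of 55 and 18 of 57 cells at these times, shares of 37.7%, 44.6%, 40% and 31.6% whose exact 95% intervals all overlap. The share of cells did not rise with the mean, and at 30 h 1 cell of 891 TPM held 50.8% of the sum. Cells at 100 TPM or more numbered 1, 5, 5 and 4. The log2 ratio of Snap25 was 1.75 at 18 h, 1.28 at 24 h and 1.76 at 30 h against 6 h, and at 30 h it was 1.20 without the highest cell.

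In the other set Snap25 rose in level and in share of cells. Its means were 14.3 ± 52.3, 33.2 ± 96.1, 539 ± 1110 and 335 ± 574 TPM at 0, 12, 36 and 48 h. It was above 0 in 5 of 37, 16 of 52, 20 of 44 and 7 of 14 cells, or 13.5%, 30.8%, 45.5% and 50% (exact 95% intervals at the ends 4.54% to 28.8% and 23% to 77%). The median number of genes per cell fell over the same times, with 5304 at 0 h and 2894 at 36 h. At 36 h 14 cells and at 48 h 7 cells were at 100 TPM or more, against 2 cells at 0 h, and the log2 ratios against 0 h were 1.16 at 12 h, 5.14 at 36 h and 4.46 at 48 h. Between 48 and 36 h Snap25 differed by less than 2-fold (log2 ratio -0.68), over the 14 cells at 48 h.

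Stx1a (chr5:135023482-135051100), the syntaxin of the presynaptic membrane, was later than Snap25 in the 6 to 30 h set by both orders as first given, and level with it at 5 TPM and in the 50% order over all cells. It averaged 5.60 ± 13.6, 4.08 ± 8.91, 21.9 ± 44.4 and 15.7 ± 40.6 TPM at 6, 18, 24 and 30 h and was above 0 in 28.3%, 37.5%, 43.6% and 42.1% of cells. Cells at 10 TPM or more numbered 9, 6, 18 and 15. The 24 h mean stood 1.79 log2 units above 6 h and 2.17 above 18 h, and no single cell held more than 30.1% of the sum at any of these times. At 0 to 48 h Stx1a was rare, with 2 of 37, 7 of 52, 0 of 44 and 2 of 14 cells above 0. The 0 of 44 cells at 36 h allow a share of up to 6.82%, at a median of 2894 genes per cell.

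The vesicle SNARE stayed low throughout. Vamp2 averaged between 1.72 and 3.69 TPM at 6 to 30 h and at most 6.23 TPM in the other set, and Vamp1, its relative in many motor neurons, at most 2.38 TPM at any time. Neither reached the level rule. Vamp2 was above 0 in 15, 14, 8 and 14 cells at 6, 18, 24 and 30 h, which gives no order. Cells with at least 2 of Snap25, Stx1a and Vamp2 above 0 were 12 of 53 at 6 h, 21 of 56 at 18 h, 15 of 55 at 24 h and 19 of 57 at 30 h, which is 22.6%, 37.5%, 27.3% and 33.3%, and the exact intervals overlap. All 3 together were seen in 5, 5, 3 and 1 cells.

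The genes that recycle the SNARE bundle were present from the first time in both sets. Napa, which encodes alpha-SNAP, averaged 74.1, 68.3, 119 and 123 TPM at 6, 18, 24 and 30 h, in 91.1% to 94.5% of cells. Nsf averaged 23.3, 19.7, 40.1 and 27.4 TPM in 80% to 84.9% of cells. Their log2 ratios at 30 h against 6 h were 0.73 and 0.23, both under 2-fold. At 0, 12, 36 and 48 h Nsf stood at 44.8, 37.7, 57.7 and 50.0 TPM, and Napa at 94.3, 64.5, 111 and 15.1 TPM. Napa was the 1 member that fell in any comparison with 0 h or 6 h, by 2.57 log2 units at 48 h, where it was above 0 in 3 of 14 cells against 25 of 37 at 0 h, and the share of all tested genes that fell by 2-fold was 43.4%. Napb, the neuronal beta-SNAP, averaged 2.84, 3.24, 8.37 and 9.44 TPM at 6 to 30 h and did not reach 10 TPM. It stood at 48.0, 60.5, 164 and 44.6 TPM at 0 to 48 h, with 42.5% of the 36 h sum in 1 cell.

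Both complexins rose at 24 h against 18 h. Cplx1 (chr5:108518554-108550027) averaged 2.26 ± 9.37, 3.28 ± 9.31, 11.3 ± 29.3 and 8.24 ± 18.9 TPM at 6, 18, 24 and 30 h, above 0 in 8, 9, 16 and 17 cells, and its 24 h mean was 1.92 log2 units above 6 h. Cplx2 (chr13:54301964-54383923) averaged 10.6 ± 18.7, 8.34 ± 11.7, 22.1 ± 33.1 and 22.2 ± 30.2 TPM in 77.4%, 75%, 81.8% and 87.7% of cells. Cells of Cplx2 at 10 TPM or more numbered 15, 17, 27 and 30, so more cells and not only a few high ones carried it. Its log2 ratio against 6 h lay at the 2-fold line, just under it at 24 h and 1.01 at 30 h, while at 24 h against 18 h it was 1.30. In the other set Cplx2 averaged 9.58, 26.4, 121 and 96.3 TPM at 0, 12, 36 and 48 h, highest at 36 h. It was above 0 in 73%, 65.4%, 79.5% and 71.4% of cells. Its log2 ratios against 0 h were 1.37, 3.52 and 3.20 at 12, 36 and 48 h, and 32 of 44 cells at 36 h were at 10 TPM or more, against 7 of 37 at 0 h.

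The promoters of Stx1a, the complexins and Syt11, a synaptotagmin that lacks calcium binding, are shown beside that of Nsf because the first 4 genes rose at 24 h against 18 h and Nsf was present from the start. Each is RefSeq sequence of GRCm38.p6, a window of 300 bases around the start that its promoter table gives, 5′ to 3′ on the gene's strand. Capitals mark CAGCTG, 1 form of the E-box CANNTG that proneural factors such as Ngn2 are known to bind.
Stx1a promoter, chr5:135023232-135023531, plus strand: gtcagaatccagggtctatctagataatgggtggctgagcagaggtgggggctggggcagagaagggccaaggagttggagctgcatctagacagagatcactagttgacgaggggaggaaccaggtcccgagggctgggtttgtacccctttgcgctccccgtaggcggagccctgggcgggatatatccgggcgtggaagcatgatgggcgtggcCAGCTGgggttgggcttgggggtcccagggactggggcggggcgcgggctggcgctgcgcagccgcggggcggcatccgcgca
Cplx1 promoter, chr5:108549978-108550277, minus strand: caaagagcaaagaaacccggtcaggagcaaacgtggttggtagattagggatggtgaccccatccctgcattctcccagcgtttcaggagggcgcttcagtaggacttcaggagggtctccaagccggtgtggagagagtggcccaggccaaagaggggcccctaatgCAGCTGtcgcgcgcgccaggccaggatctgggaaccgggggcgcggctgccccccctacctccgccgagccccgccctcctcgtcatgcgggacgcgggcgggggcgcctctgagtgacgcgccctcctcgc
Cplx2 promoter, chr13:54302306-54302605, plus strand: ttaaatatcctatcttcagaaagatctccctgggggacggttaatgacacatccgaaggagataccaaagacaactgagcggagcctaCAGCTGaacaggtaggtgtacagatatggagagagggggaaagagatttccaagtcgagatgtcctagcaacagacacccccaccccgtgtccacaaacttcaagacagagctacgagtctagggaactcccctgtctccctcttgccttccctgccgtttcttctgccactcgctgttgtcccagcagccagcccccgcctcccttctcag
Syt11 promoter, chr3:88772550-88772849, minus strand: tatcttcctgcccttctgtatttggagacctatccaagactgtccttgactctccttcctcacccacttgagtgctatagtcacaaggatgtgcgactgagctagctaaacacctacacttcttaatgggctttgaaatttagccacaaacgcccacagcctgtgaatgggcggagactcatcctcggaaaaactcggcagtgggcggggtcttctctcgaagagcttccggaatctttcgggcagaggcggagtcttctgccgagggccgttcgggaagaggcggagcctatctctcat
Nsf promoter, chr11:103954007-103954306, minus strand: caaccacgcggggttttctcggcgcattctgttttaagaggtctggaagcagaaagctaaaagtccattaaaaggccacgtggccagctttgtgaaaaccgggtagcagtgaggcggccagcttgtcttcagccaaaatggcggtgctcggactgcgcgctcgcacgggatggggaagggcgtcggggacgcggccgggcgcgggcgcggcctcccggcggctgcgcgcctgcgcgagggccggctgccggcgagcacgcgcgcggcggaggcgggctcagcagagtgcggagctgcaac
CAGCTG was found in 1 copy in each of the Stx1a, Cplx1 and Cplx2 windows and in neither that of Syt11, which also rose at 24 h against 18 h, nor that of Nsf. Of the 30 members that RefSeq's promoters cover, 7 held it (23.3%), the others being Bsn, Nlgn2, Rab3c and Sv2a, against 16.1% of 27025 promoters of the same length. CAGATG, another form of the E-box, was read on both strands and found in 2 of the 30 (6.67%) against 17.2% of all, and TAATTA, a core of homeodomain sites, in 0 of 30 against 5.31%. CAGCTG and TAATTA read the same on both strands, and none of these motifs can overlap another. A match is a description of the letters, and Bsn and Rab3c held CAGCTG while staying under 1 TPM.

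Among the synaptotagmins, Syt1, the calcium sensor of fast release, had its highest mean at 30 h in the 6 to 30 h set, whereas at 0 to 48 h Syt4 and Syt11 had theirs at 48 h. Syt1 (chr10:108497650-109010980) averaged 0.215, 1.11, 5.33 and 12.6 TPM at 6, 18, 24 and 30 h, above 0 in 1 of 53, 1 of 56, 5 of 55 and 12 of 57 cells. The share was 21.1% at 30 h (exact 95% interval 11.4% to 33.9%) against 1.89% at 6 h (0.0478% to 10.1%). Such intervals cover the counting of cells inside 1 sample and are no test between time points. Syt1 missed the 25% filter and is not counted among the members that rose, and it was singled out after its values were seen. Its log2 ratio at 30 h against 6 h was 3.48, and 1 cell held 47.5% of the 30 h sum. At 0 to 48 h Syt1 was above 0 in 1 or 2 cells at each time, and its highest mean there was 2.03 TPM at 12 h.

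Syt4, a synaptotagmin of dense-core vesicles with weak calcium binding, was low at 6 to 30 h, between 4.19 and 8.47 TPM. In the other set it averaged 52.5 ± 72.5, 66.5 ± 113, 152 ± 487 and 212 ± 505 TPM at 0, 12, 36 and 48 h, while its share of cells was 62.2%, 42.3%, 29.5% and 42.9%. The log2 ratio of 1.52 at 36 h against 0 h became 0.995 without the highest cell, which held 42.4% of the sum. Syt11 was at 9.28, 2.94, 10.6 and 5.83 TPM at 6 to 30 h and had no steady direction. It stayed between 19.2 and 37.6 TPM at 0 to 48 h, under 2-fold at every comparison with 0 h. Syt13 rose at 12 h to 29.9 ± 95.2 TPM in 16 of 52 cells, against 0.415 ± 1.24 TPM in 6 of 37 cells at 0 h, a log2 ratio of 4.45. It was at 10.9 TPM in 5 of 44 cells at 36 h and at 0 in the 14 cells at 48 h, while at 6 to 30 h it lay between 4.31 and 9.42 TPM in up to 58.9% of cells. Syt2 and Syt5 stayed at or under 5.18 TPM.

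Of the vesicle membrane and vesicle-associated genes, Uchl1 and Syp were the only members to reach the level rule in either set. Uchl1, an abundant neuronal ubiquitin hydrolase, averaged 169, 149, 198 and 216 TPM at 6, 18, 24 and 30 h in 90.6% to 96.5% of cells, and its log2 ratio at 30 h against 6 h was 0.35. At 0, 12, 36 and 48 h it averaged 77.1, 214, 150 and 364 TPM in 56.8%, 67.3%, 29.5% and 35.7% of cells, with log2 ratios of 1.46, 0.95 and 2.22 against 0 h. Syp, the vesicle protein synaptophysin, averaged 8.43, 7.09, 10.7 and 11.9 TPM in 45.6% to 51.8% of cells at 6 to 30 h, which is under 2-fold. In the other set it averaged 1.16, 19.8, 16.5 and 1.33 TPM, in 32.4%, 30.8%, 31.8% and 7.14% of cells. At 12 h 12 of 52 cells had Syp at 10 TPM or more, against 1 of 37 at 0 h, whereas at 36 h 1 cell held 73.3% of the sum. An annotated antisense gene overlaps 33.8% of the exon bases of Syp, 20.7% of Uchl1, 14.5% of Syt4 and 9.40% of Rab3b, and because the counting is not stated to use strand, reads of these partners cannot be told apart.

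The synapsins Syn1, Syn2 and Syn3, the vesicle glycoproteins Sv2a, Sv2b and Sv2c, and the synucleins Sncb and Sncg stayed at or under 3.73 TPM at 6 to 30 h. In the other set the highest were Sv2a at 36 h and Syn3 at 48 h, Sv2a with 15.6 TPM from 1 of 44 cells and Syn3 with 15.5 TPM from 2 of 14 cells. Sncg was above 0 in 3, 1, 1 and 0 cells at 6, 18, 24 and 30 h. Syn1, whose product tethers vesicles to actin, was above 0 in 11, 9, 5 and 12 cells at these times and in 9, 5, 1 and 0 cells at 0, 12, 36 and 48 h. Syp was above 0 in more cells than any synapsin at every time but 48 h, when Syp had 1 cell and Syn3 had 2.

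**Figure D2:**
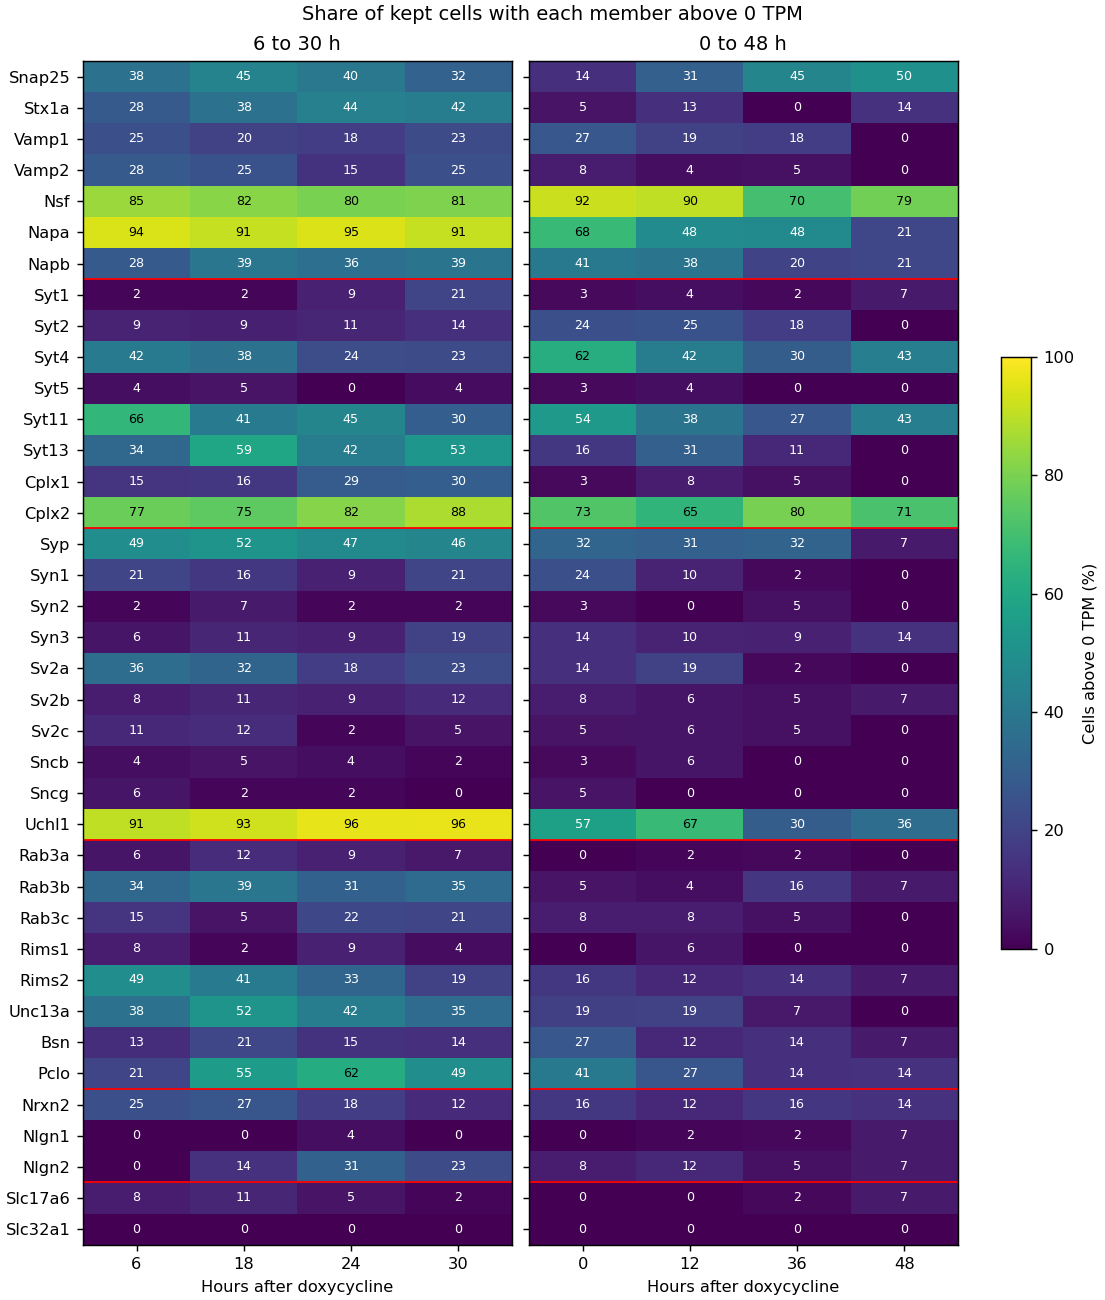
Share of cells with at least 2000 genes that had each of the 38 members above 0 TPM, in percent (colour and printed value), by hours after doxycycline, with red lines between roles. Nsf, Napa, Cplx2 and Uchl1 form the brightest rows at 6 to 30 h, Syt1 has 21% at 30 h against 2% at 6 h, and the lower detection at 36 and 48 h runs across most rows.

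Among the active zone and priming genes, the GTPase Rab3b was 2-fold higher at 30 h, a call that rests on the choice of cells. It averaged 2.75 ± 5.66, 4.62 ± 11.8, 4.24 ± 12.3 and 11.6 ± 33.9 TPM at 6, 18, 24 and 30 h, with a log2 ratio of 1.74 at 30 h against 6 h and 1.26 against 24 h. The ratio at 30 h against 6 h was 0.23 with cells of at least 1000 genes, where its 50% time became 6 h, 0.24 over all cells and 0.76 with a pseudocount of 10. Its share of cells was 34%, 39.3%, 30.9% and 35.1%, and cells at 10 TPM or more numbered 7, 7, 6 and 13. Pclo, the active zone scaffold piccolo, was above 0 in 11 of 53 cells at 6 h, 31 of 56 at 18 h, 34 of 55 at 24 h and 28 of 57 at 30 h. The Pclo shares were 20.8%, 55.4%, 61.8% and 49.1%, and its mean over these times reached no more than 7.07 TPM. Pclo was chosen after its values were seen. Piccolo and bassoon (Bsn) are partner scaffolds of the same active zone.

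The other priming genes differed from this. Unc13a, the priming factor Munc13-1, was at 3.88, 8.37, 9.44 and 5.50 TPM in 37.7%, 51.8%, 41.8% and 35.1% of cells. Rims2, a scaffold that binds Rab3, was seen in fewer cells at each later time, with 26 of 53, 23 of 56, 18 of 55 and 11 of 57 cells above 0 at 6, 18, 24 and 30 h (49.1%, 41.1%, 32.7% and 19.3%), while its mean stayed between 6.47 and 8.68 TPM. Rab3a, Rab3c, Rims1 and Bsn stayed at or under 2.12 TPM at every time. At 30 h Pclo was above 0 in 28 cells and Bsn in 8.

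Synaptic adhesion and transmitter transport genes were detected in few cells. Nlgn2, a neuroligin of inhibitory synapses, was above 0 in 0 of 53, 8 of 56, 17 of 55 and 13 of 57 cells at 6, 18, 24 and 30 h, and its mean at 30 h was 1.60 TPM. The 0 of 53 cells allow a share of up to 5.66%. Nlgn1 was above 0 in 2 cells of the 6 to 30 h set and Nrxn2 stayed at or under 3.93 TPM at every time. Slc17a6, the vesicular glutamate transporter Vglut2, was above 0 in 4, 6, 3 and 1 cells at 6, 18, 24 and 30 h. Slc32a1, the transporter for GABA and glycine, was listed at 0 in all 368 cells.

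Counted as a list, 5 members passed the filter at 18 h against 6 h and 1 of them, Snap25, was at least 2-fold higher, against 11.8% of all genes that passed. At 24 h against 6 h 9 passed and 3 were higher, against 13.5% of all genes, and these were Snap25, Stx1a and Cplx1. At 30 h against 6 h 8 passed and 4 were higher, namely Snap25, Stx1a, Cplx2 and Rab3b, against 13.9% of all genes. No member fell in these comparisons, where 7.36%, 6.28% and 6.03% of all genes did. The median log2 ratios of the members that passed were -0.18, 0.76 and 0.87, beside medians of 0.07, 0.24 and 0.20 over all genes that passed. At 12 h against 0 h 5 of 10 that passed were higher, Syt13, Syp, Uchl1, Cplx2 and Snap25, against 17% of all genes. At 36 h against 0 h 4 of 8 were higher, Snap25, Cplx2, Syp and Syt4, against 22.5%, and at 48 h 4 of 8, Snap25, Cplx2, Uchl1 and Syt4, against 22.8%. Comparisons in a set share the 6 h or the 0 h cells, and the filter admits a member by the time at which it is high, so these counts are read only beside the background. The count at 30 h against 6 h was 1 of 8 with a pseudocount of 10 in place of 1, where 4.94% of all genes were higher. Over all cells it was 0 of 4 that passed, against 18.3% of all genes. Snap25 was then at 0.56, Cplx2 at 0.34 and Rab3b at 0.24 log2 units, and 1 member, Napa, was lower by 1.03.

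**Figure D3:**
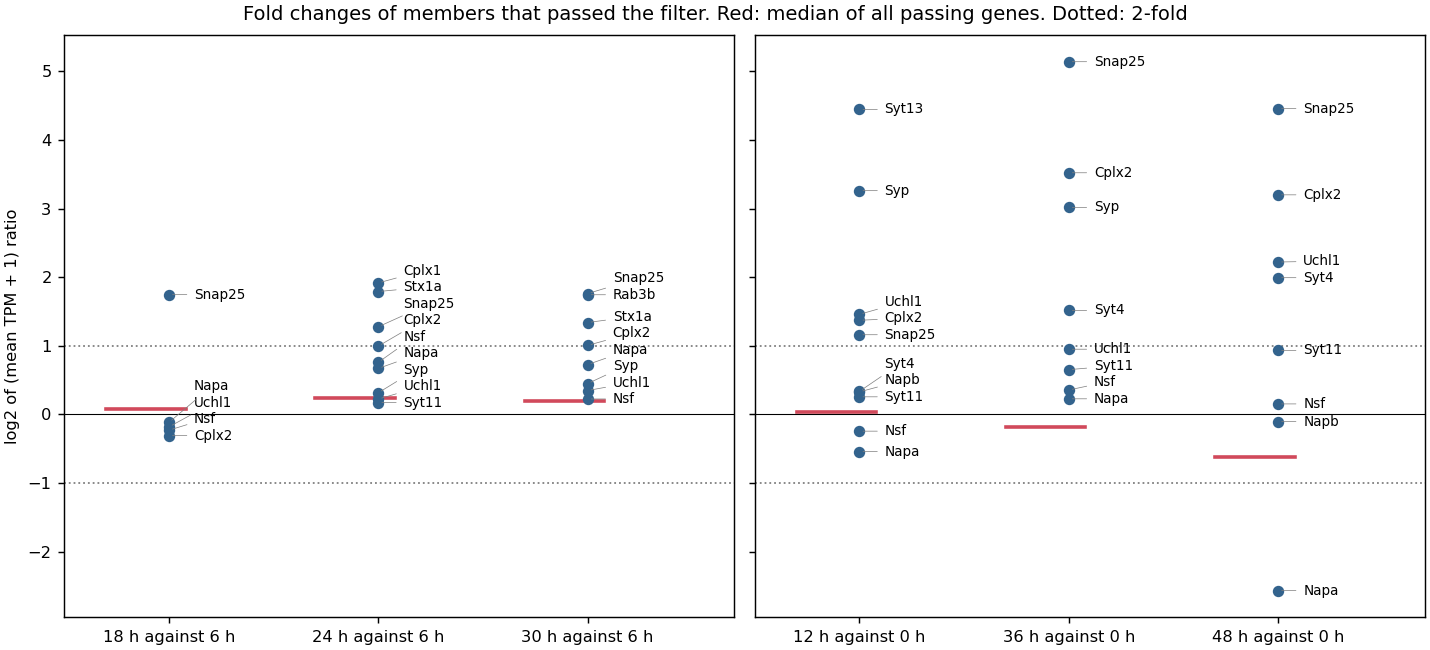
Log2 ratio of (mean TPM + 1) for each member that passed the filter, by comparison, with the 6 h comparisons left and the 0 h comparisons right. Red bars give the median of all genes that passed and dotted lines 2-fold. Snap25 lies above the upper line in all 6 comparisons, and Napa at 48 h against 0 h is the single point below the lower line.

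Step by step, the 6 to 30 h set had the most members at least 2-fold higher between 18 and 24 h. At 24 h against 18 h, Stx1a (log2 ratio 2.17), Syt11 (1.56), Cplx1 (1.53) and Cplx2 (1.30) were at least 2-fold higher among 9 members that passed, against 9.05% of all genes, and no member was lower, against 6.4%. The means of Stx1a, Syt11 and Cplx2 were lower at 18 h than at 6 h, so part of this step was a return. Syt11 was not 2-fold higher at 24 h against 6 h. At 30 h against 24 h 1 of 10 was higher, Rab3b, against 2.3% of all genes, and none was lower, against 1.91%. At 36 h against 12 h 3 of 9 were higher, Snap25 (3.98), Cplx2 (2.15) and Syt4 (1.18), against 19.4% of all genes, and Syt13 was lower by 1.37 log2 units, against 24.8%. At 48 h against 36 h Uchl1 was higher (1.27) among 8 that passed, against 17.5% of all genes, and Napa (-2.79) and Syp (-2.91) were lower, against 28.6%. None of the step comparisons given here was recomputed under an alternative.

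Other genes of the same pathway were counted by role beside the same background, 13.9% of all genes higher and 6.03% lower at 30 h against 6 h. Of 22 SNARE genes used in other trafficking steps 14 passed at 30 h against 6 h and 2 were higher, Vamp4 (1.40) and Stx18 (1.07). Of 40 other release genes 6 passed, with Unc13b, a Munc13 relative, and Erc1, an active zone scaffold, higher by 1.54 and 1.02, and Doc2a, a calcium-binding priming protein, lower by 1.60 log2 units. Of 23 genes of vesicle endocytosis 11 passed and 1 was higher, Amph, which bends membranes for dynamin. Amph averaged 30.9 TPM at 30 h in 80.7% of cells, against 4.07 TPM in 52.8% at 6 h, a log2 ratio of 2.66. Of 17 transmitter genes 1 passed, the vesicular acetylcholine transporter Slc18a3, with 10.2 TPM in 42.1% of cells at 30 h against 3.96 TPM in 24.5% at 6 h (1.18). Of the 15 early neuronal genes 12 passed and 9 were higher, with a median log2 ratio of 2.05, and Stmn2 stood at 124 TPM at 30 h against 9.57 TPM at 6 h. Of 22 other adhesion and postsynaptic genes 1 passed, Lin7c, and it was not 2-fold changed. Of 10 genes used by all cells 10 passed and 1 was higher, Hprt, at 55.5 TPM at 30 h against 14.1 TPM at 6 h. The log2 ratio of Hprt, 1.91, was above that of any member that passed, of which Snap25 had the largest (1.76). What this means for the members was not tested. At 36 h against 0 h, where 22.5% of all genes were higher and 28.5% lower, 1 of the 6 SNARE genes of other steps that passed was higher and 2 were lower. There 3 of 5 other release genes were higher and 1 lower, 3 of 12 endocytosis genes were higher and 5 lower, and 11 of 11 early neuronal genes were higher. Of the genes used by all cells 8 passed there, with 2 higher and 0 lower.

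Genes of other cell types moved in part over the same times. Of 12 glial markers 5 to 10 were at 0 in every cell at a given time, and their summed mean was 4.18 to 14.9 TPM at 6 to 30 h and 3.94 to 44.9 TPM at 0 to 48 h. Sox10 and Aif1 were at 0 in all cells, and Gfap and Aqp4 were above 0 in at most 1 cell at a time. The glial gene that passed at 30 h against 6 h was Mbp (log2 ratio 1.39), above 0 in 35 cells at 30 h and 21 at 6 h. Of 10 endocrine genes, which share part of the release machinery, 5 to 8 were at 0, Ins1, Ins2 and Pdx1 at all times, and the 1 that passed was the cassette gene Isl1. Of 12 epithelial and mesoderm genes 5 passed and 3 were higher, T, Krt18 and Krt8. Epcam (-0.94) and Cdh1 (-0.28) were lower by less than 2-fold. The summed mean of all 12 was 345, 548, 1033 and 1089 TPM at 6, 18, 24 and 30 h. At 36 h against 0 h 4 passed, with Krt8 and Krt18 higher and Epcam (-6.01) and Cdh1 (-2.48) lower. Of 10 pluripotency genes 9 passed at 30 h against 6 h and 5 were lower, against 6.03% of all genes. At 36 h against 0 h 8 passed and all 8 were lower, against 28.5%. The part of these genes in the results for the members was not tested.

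Within cells, Elavl3, a neuronal RNA-binding protein, was above 0 in a larger share of cells with Snap25 than without it at every time but 48 h. At 30 h Elavl3 was above 0 in 15 of 18 cells with Snap25 above 0 and in 6 of 39 cells with Snap25 at 0, which is 83.3% (exact 95% interval 58.6% to 96.4%) and 15.4% (5.86% to 30.5%). The median depths of these cells were 6874 and 6316 genes. At 18 h the counts were 19 of 25 and 5 of 31, at 24 h 17 of 22 and 12 of 33, and at 6 h 6 of 20 and 7 of 33. The shares were far apart at 18, 24 and 30 h and near each other at 6 h, with 30% and 21.2%. In the other set the counts were 3 of 5 and 7 of 32 at 0 h, 8 of 16 and 8 of 36 at 12 h, 14 of 20 and 12 of 24 at 36 h, and 3 of 7 and 4 of 7 at 48 h, where the direction was the opposite over few cells. Whether the pairing differs between times was not tested. Stmn2 was above 0 in 22 of 22 cells with Snap25 at 24 h and 17 of 18 at 30 h, and it was also above 0 in 26 of 33 and 32 of 39 cells without Snap25. At 6 h its direction was the opposite, with 6 of 20 cells with Snap25 and 18 of 33 without. Tubb3 was above 0 in 17 of 20 and 28 of 33 cells at 6 h, and in 17 of 18 and 17 of 39 at 30 h. Pou5f1, a pluripotency gene, was above 0 in 24 of 25 and 26 of 31 cells at 18 h, and in 14 of 22 and 28 of 33 at 24 h. These partner genes were chosen after their values were seen, and cells of 1 time point are not replicates.

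Pairs of members were counted in the same way, 28 pairs of the 8 that met the level rule at 30 h and some others chosen after their values were seen. At 24 and 30 h every cell with Snap25 above 0 also had Cplx2 above 0 (22 and 18 cells), but so did 23 of 33 and 32 of 39 cells without Snap25. At 30 h all 18 cells with Snap25 likewise had the widely detected Napa and Uchl1 above 0. Cplx1 was above 0 in 12 of 22 cells with Snap25 and 4 of 33 without at 24 h, and in 11 of 18 and 6 of 39 at 30 h. At 6 h the same counts were 1 of 20 and 7 of 33. Stx1a was above 0 in 14 of 25 cells with Snap25 and 7 of 31 without at 18 h, in 12 of 22 and 12 of 33 at 24 h, and in 11 of 18 and 13 of 39 at 30 h. No difference between these pairs was tested. At 30 h Syt1 was above 0 in 7 of 18 cells with Snap25 and in 5 of 39 without, so Syt1 was not limited to cells in which Snap25 was detected. Cells with Snap25 were somewhat deeper, with medians of 7324.5 genes against 6581 at 24 h, and the part of depth was not tested.

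**Figure D4:**
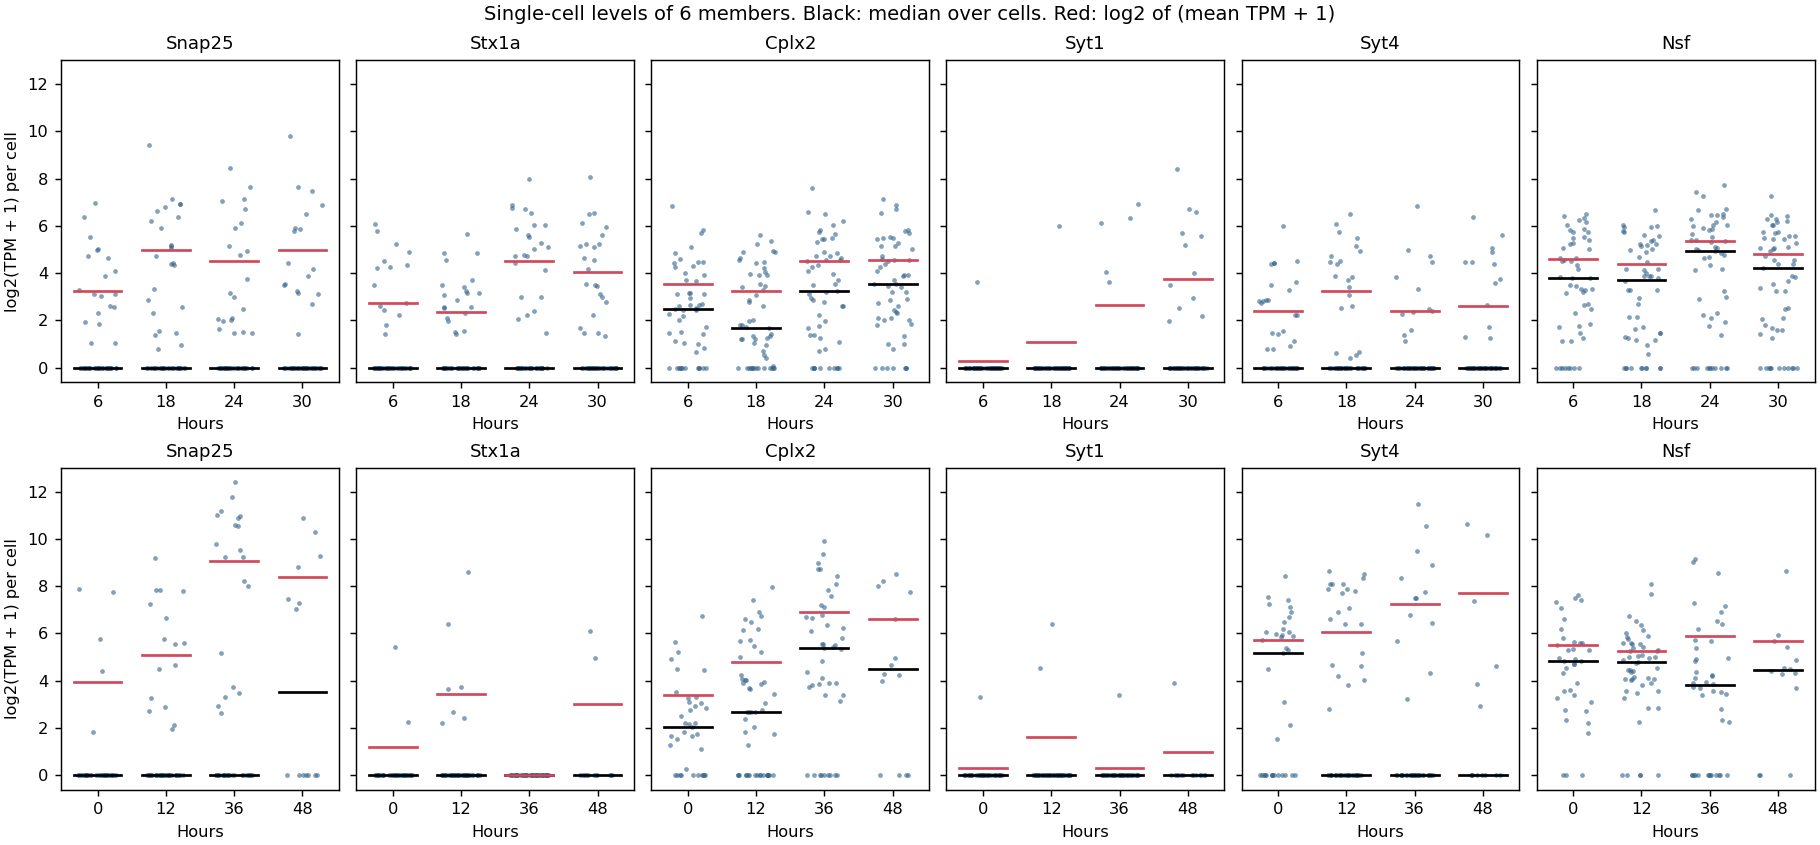
Each point is 1 cell, as log2(TPM + 1), for Snap25, Stx1a, Cplx2, Syt1, Syt4 and Nsf by hours after doxycycline, with 6 to 30 h above and 0 to 48 h below. Black bars are medians and red bars log2 of (mean + 1). Syt1 has most cells at 0 and a few high ones. Snap25 has most cells at 0 at every time but 48 h, where 7 of 14 cells were above 0. Nsf has most cells above 0 at every time.

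Cells with more genes detected also held more members, though only weakly so at 36 and 48 h. Members above 0 per cell had medians of 10, 12, 11 and 10 at 6, 18, 24 and 30 h, with a range of 0 to 24, and of 9, 7, 5 and 4.5 at 0, 12, 36 and 48 h. As a share of the genes detected in a cell the medians were 0.146% to 0.159% in the first set and 0.161% to 0.188% in the second. Spearman's rho between members and genes above 0 across the cells of a time point was 0.547 to 0.713 at 6 to 30 h, which describes 53 to 57 cells a time. At 0, 12, 36 and 48 h rho was 0.575, 0.428, 0.170 and 0.192, over 37, 52, 44 and 14 cells. Counting members at 10 TPM or more instead, the medians were 4, 5, 6 and 6 at 6 to 30 h.

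**Figure D5:**
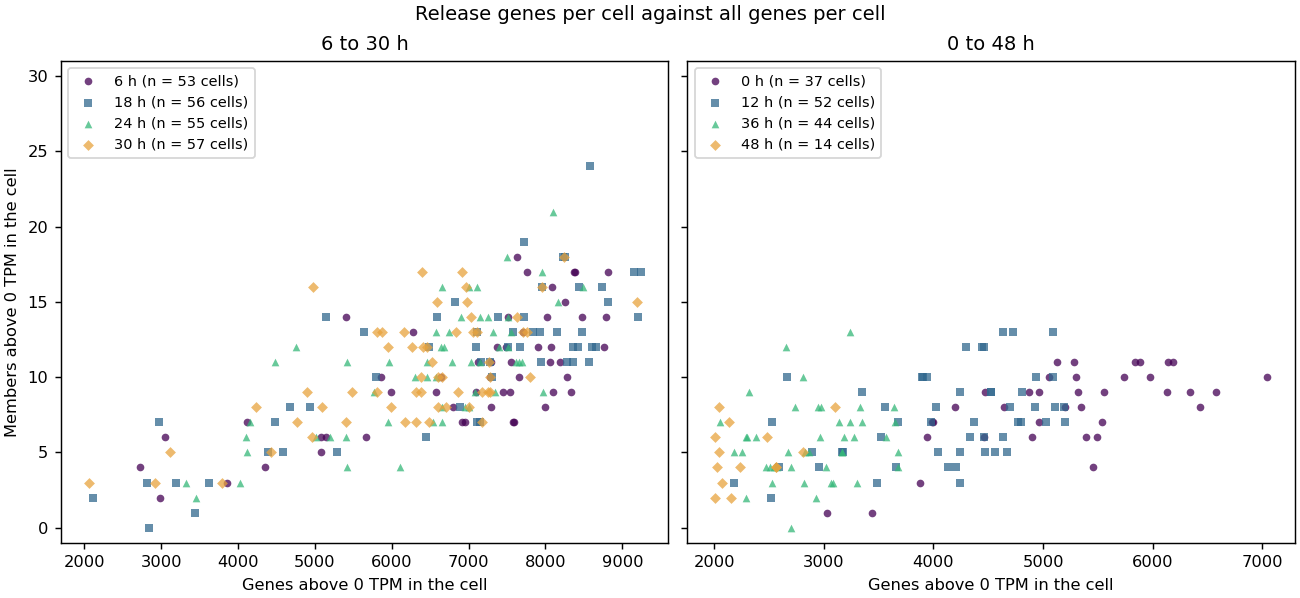
Number of the 38 members above 0 TPM in a cell against the number of all genes above 0 in that cell, 1 point per cell, by time point, with 6 to 30 h left and 0 to 48 h right. Deeper cells hold more members at every time from 6 to 30 h (rho 0.547 to 0.713), and the 36 and 48 h cells lie at the shallow end with medians of 5 and 4.5 members.

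The remaining members complete the account. In neither set did 25 of the 38 reach the level rule, and the highest mean among them was 18.3 TPM, of Pclo at 36 h in 6 of 44 cells. Stx1a, Cplx1 and Rab3b reached it at 6 to 30 h alone, and Napb, Syt4 and Syt13 at 0 to 48 h alone. That difference between the sets was not tested, since the sets differ in times, in genes per cell and in Sod1 together, and these cannot be told apart.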

How the data were processed

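RNA of 768 single cells, 96 at each of 8 time points, was profiled by SMART-Seq2, with 50 bp single-end reads and a stated average of 325000 reads per cell, per the labels' protocols. The values are TPM as deposited by the authors, 1 column per cell, and every column sums to the same total within rounding. The read depth behind a TPM value is unknown, and the number of genes above 0 in a cell was used in its place. Of tools and builds, the submitters' processing notes give bcl2fastq, Picard and mm10. Not given in the sources used here are the aligner, the annotation, any use of strand and the membership of the 2 library batches.

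Time points came from the labels. Cells in which 2000 genes or more were above 0 entered, and 400 did not. Fold changes are log2 ratios of (mean TPM + 1), on which changes of low genes look smaller than they are. The filter asked for a mean of 10 TPM or more and 25% of cells above 0 in whichever time point was higher, and a gene that passed rose or fell where it changed 2-fold. Shares have exact 95% binomial (Clopper-Pearson) intervals, and a share of 0 a limit of 3 cells over all cells, both covering counting error only. Doublets were not called. Members, gene lists and the set of comparisons were chosen with earlier results of these data known. The named members are those that met the level rule, and at most 4 genes of each other list, those that changed most at 30 h against 6 h. Syt1, Pclo, Nlgn2 and other members below the rule, and the partners Elavl3, Stmn2, Tubb3 and Pou5f1, were chosen after their values were seen. Exon overlaps are from GENCODE M21 on GRCm38, and 30 of 38 members had a promoter in the RefSeq table (GRCm38.p6, the first listed start). The fold step was tested on simulated cells made from genes that already met the level rule at the earlier time, so the filter was not tested. Alternatives tried were pseudocounts of 0.1 and 10, no filter, other limits on genes per cell, other levels, leaving out each gene's highest cell, and rescaled means. Computations ran in Python 3.11.15 with scipy 1.17.1, pandas 2.3.3 and numpy 2.4.6, and plots in matplotlib 3.10.9.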

Additional observations from a re-analysis of the deposited data

How the results depend on the processing

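Of 72 values of a count or an order recomputed under an alternative, 47 stayed within 1.5 times the reported count. An order was compared only by the number of members placed after the first time, and not by which members these were. At 6 to 30 h and a level of 5 TPM that number was 7 where 6 was reported. Yet Snap25, Stx1a, Syt11 and Syp had moved to 6 h, so the 47 do not show that an order held. Over all cells the balance turned at 18 h and at 30 h against 6 h, with 0 members higher and 1 lower in each. The members' median log2 ratio at 18 h against 6 h, reported as -0.18, was 0.16 without the filter and 0.09 over all cells. Without the filter on low values 35 to 37 members passed. The number of members at least 2-fold higher was then 2, 8 and 11 at 18, 24 and 30 h against 6 h. There 1, 3 and 4 were reported, and 9.16%, 12.2% and 12.5% of all genes were higher without the filter. At 12, 36 and 48 h against 0 h it was 15, 14 and 10, where 5, 4 and 4 were reported. Of all genes 22%, 26.2% and 23.6% were higher there without the filter. Over all cells the number was 0 of 6 that passed at 18 h and 0 of 4 at 30 h against 6 h. The shares of all genes higher there were 21.2% and 18.3%. It was 2 of 4 at 12 h and 1 of 1 at 48 h against 0 h, beside 22.5% and 14.5% of all genes. With a pseudocount of 10 it was 3 of 10 at 12 h against 0 h, where 10.9% of all genes were higher. At 24 and 30 h against 6 h it was 1 of 9 and 1 of 8, beside 4.44% and 4.94% of all genes. With cells of at least 1000 genes it was 2 of 8 at 30 h against 6 h, beside 13.9% of all genes. At 36 h against 0 h it was 2 of 7 when each gene's highest cell was left out, beside 18.8% of all genes. Among cells of 2000 to 4000 genes, where 0 h keeps 6 cells, it was 8 of 8, beside 34.4%. Members that first reached the level after 6 h numbered 6, and 3 at a level of 20 TPM or without the highest cell. Those reaching 50% of the highest mean after 6 h numbered 5, and 3 with cells of at least 1000 genes or without the highest cell. Members that reached the level after 0 h numbered 4, and 7 among cells of 2000 to 4000 genes. The median of 10 members per cell at 30 h was 6 at 10 TPM or more and 1 among the 1000 highest genes of a cell, and the 19 cells with at least 2 SNARE genes were 8 and 0. Apart from the effect of the construction (fewer or more genes passing), the cause was not tested.

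Of 128 recomputed values of single members 109 kept their side of 2-fold. These include the values without the filter, which cannot change the ratio of a single member and were kept by construction. Over the 8 alternatives at 30 h against 6 h, Stx1a lay between 0.72 and 1.47, Snap25 between 0.56 and 1.87, Cplx2 between 0.34 and 1.20 and Rab3b between 0.23 and 2.03, and Napa reached -1.03 over all cells. At 36 h against 0 h Snap25 lay between 3.27 and 5.55 and Cplx2 between 2.74 and 3.74. Both were past 2-fold in all 8, of which the unfiltered one could not differ. Syt11 reached -0.89 there over all cells, under 2-fold. No paired analysis was possible because each time point is 1 sample and the cell numbers in the labels only name cells. Depth limits every value of 0, most of all at 36 and 48 h.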
